A study of Mus musculus with 4 samples.

Results

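The proteasome genes measured in sorted spermatocytes are the subject here. They were taken by symbol, as all genes named Psma to Psmg followed by a digit, with pseudogenes left out. Of 37718 gene rows, 50 members were found this way, after 4 of 54 matching symbols were set aside as pseudogenes. The cells, described in the paper as purified diplotene cells, came from testes at 20 days post partum (dpp). They were sorted with magnetic beads for human CD4, which the mice express under the endogenous Tdrd6 promoter. By the paper's own staining such preparations were mostly diplotene but not pure, with secondary spermatocytes and round spermatids also counted. TDRD6 is a Tudor domain protein of the chromatoid body, and its loss was studied for effects on spliceosome maturation and splicing. There were 2 Tdrd6+/- and 2 Tdrd6-/- samples, each a pool of at least 4 mice. The controls are heterozygotes, so both genotypes carry a disrupted Tdrd6 allele, and no wild-type sample was among the 4. Total RNA was depleted of ribosomal RNA before sequencing, so that unspliced RNA is also counted.

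The proteasome degrades proteins marked with ubiquitin. Its barrel-shaped core is built of alpha rings, which gate the entry, and beta rings, which hold the proteolytic sites. A regulatory particle, made of a base with a ring of ATPases and a lid, binds ubiquitin, removes it and unfolds the substrate. Male germ cells build a variant called the spermatoproteasome, in which the meiotic subunit alpha4s, encoded by Psma8, takes the place of alpha4, encoded by Psma7, and the activator PA200, encoded by Psme4, is a common partner.

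Genes received 26454326 to 31388750 counts per sample and introns 9603669 to 13937818. Tdrd6 itself was at 1269 to 1412 CPM (counts relative to the TMM-scaled library size) in Tdrd6+/- and at 11.4 to 12.5 CPM in Tdrd6-/- samples. The 8 spermatocyte markers, Sycp3 and Hspa2 among them, summed to 3821 to 4017 CPM in the 4 samples, of which edgeR called Sycp1 and Spag6 higher and Piwil1 lower in Tdrd6-/-. Spermatid markers summed to 11.95 and 16.15 CPM in Tdrd6+/- and to 25.55 and 24.18 CPM in Tdrd6-/- samples, of which 2 of the 3 that could be tested were higher in Tdrd6-/-, while the late spermatid genes Tnp1, Tnp2, Prm1 and Prm2 stayed at or under 0.316 CPM. Spermatogonial markers summed to 22.5 to 23.9 CPM in Tdrd6+/- and to 27.2 to 31.2 CPM in Tdrd6-/- samples. Sertoli markers summed to 54.5 to 61.7 and to 69.0 to 69.6 CPM, with 0 of 6 and 0 of 7 called by edgeR. The single markers did not all go the way of these sums. Sox9 was at 2.90 and 1.87 CPM in Tdrd6+/- and at 1.17 and 1.59 CPM in Tdrd6-/- samples, and Zbtb16, Gata4 and Wt1 overlapped. Leydig markers summed to 17.2 and 21.2 CPM in Tdrd6+/- and to 22.1 and 19.8 CPM in Tdrd6-/- samples, with overlap. The part of these cells in the differences described here was not tested. In bulk RNA, fewer cells of a type and less RNA per cell cannot be told apart.

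No proteasome gene passed the test for a difference between the genotypes. Of the 50 members, 47 passed the filter on low counts, and 0 of the 47 were called at a false discovery rate of 0.1 in edgeR's quasi-likelihood fit after Benjamini-Hochberg adjustment (standard errors, SE, are from the same fit), where 4.8% of all 16555 genes tested were called (1.02% higher and 3.78% lower in Tdrd6-/-). At an unadjusted p under 0.05, 2 of the 47 members passed, Psma7 and Psmd7, against 13.99% of all genes. DESeq2's Wald test also called 0 members. Without Tdrd6+/- replicate 1 edgeR called Psmd7, and without Tdrd6-/- replicate 1 it called Psma7. The p-values measure only the spread between these 4 pooled samples, since nothing states which mice went into each pool.

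The members nevertheless lay mostly on the positive side. The log2 fold change of Tdrd6-/- over Tdrd6+/- was positive for 38 and negative for 9 of the 47, with a median of 0.15, while the median over all genes tested was 0.01 and 51.7% were positive. Both Tdrd6-/- samples were above both Tdrd6+/- samples for 17 of the 47, where 20.1% of all genes were, and below them for 6, where 23.4% were. This lean rested on 1 library. Without Tdrd6-/- replicate 2, 27 members had a positive log2 fold change and the median was 0.02, and without any other single sample the median was 0.12 to 0.26.

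**Figure D1:**
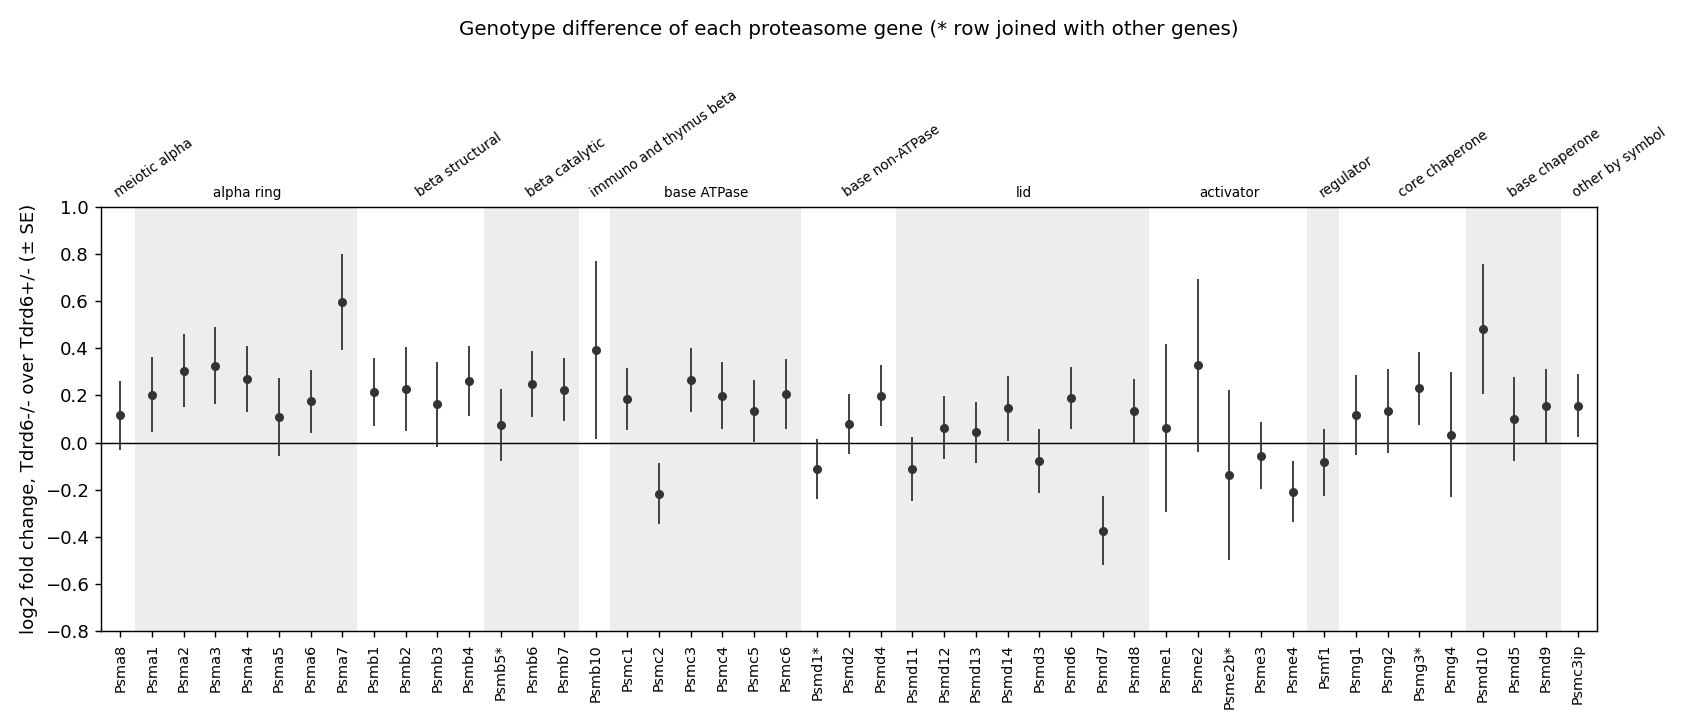
Log2 fold change of Tdrd6-/- over Tdrd6+/- (y axis, dots, with bars of 1 SE from edgeR) for the 47 proteasome genes past the filter, in order of their role (x axis). All 15 core genes lie above 0, the lid genes lie on both sides, and the values run from -0.37 for Psmd7 to 0.60 for Psma7.

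Levels differed far more between the genes than between the genotypes. Counts were divided by library size and by the length of annotated exon (CPM per kb), the main scale on which genes are compared here. Ranks, orders and medians on this scale depend on the lengths used. Other lengths were tried only for the ratio of Psma8 to Psma7. It was 25.8 with annotated exon and 16.5 with the longest transcript. For some members, Psma8 and Psmd8 among them, annotated positions could not be assigned to the counted introns, so their lengths may not match what was counted. The base ATPase Psmc3 (Rpt5) was the highest proteasome gene at 354.5 ± 48.5 CPM per kb (SD, n = 4 samples) and ranked 67 from the top of 18827 genes with at least 10 counts. Below it came the base scaffold Psmd2 (Rpn1) at 197.0 ± 8.46, the activator Psme4 at 128.5 ± 12.1, the meiotic Psma8 at 116.6 ± 16.8 and the lid gene Psmd8 (Rpn12) at 98.5 ± 10.8 CPM per kb (SD, n = 4 each). Psme4 and Psma8 had ranges that overlapped, from 114.5 to 143.0 and from 94.4 to 129.8 CPM per kb. The range of Psmd2, from 191.0 to 209.4, lay apart from both that of Psme4 below it and that of Psmc3 above it.

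Between the parts of the complex, the median level was 28.8 CPM per kb over the 15 core genes, 31.3 over the 8 lid genes and 65.2 over the base genes, for which Psmd1 was left out because its row is joined with other genes. Within each part the levels were uneven although most subunits are present in equal copies in the complex. The core genes ran from 4.69 to 116.6, the base genes from 14.4 to 354.5 and the lid genes from 12.04 to 98.48 CPM per kb.

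**Figure D2:**
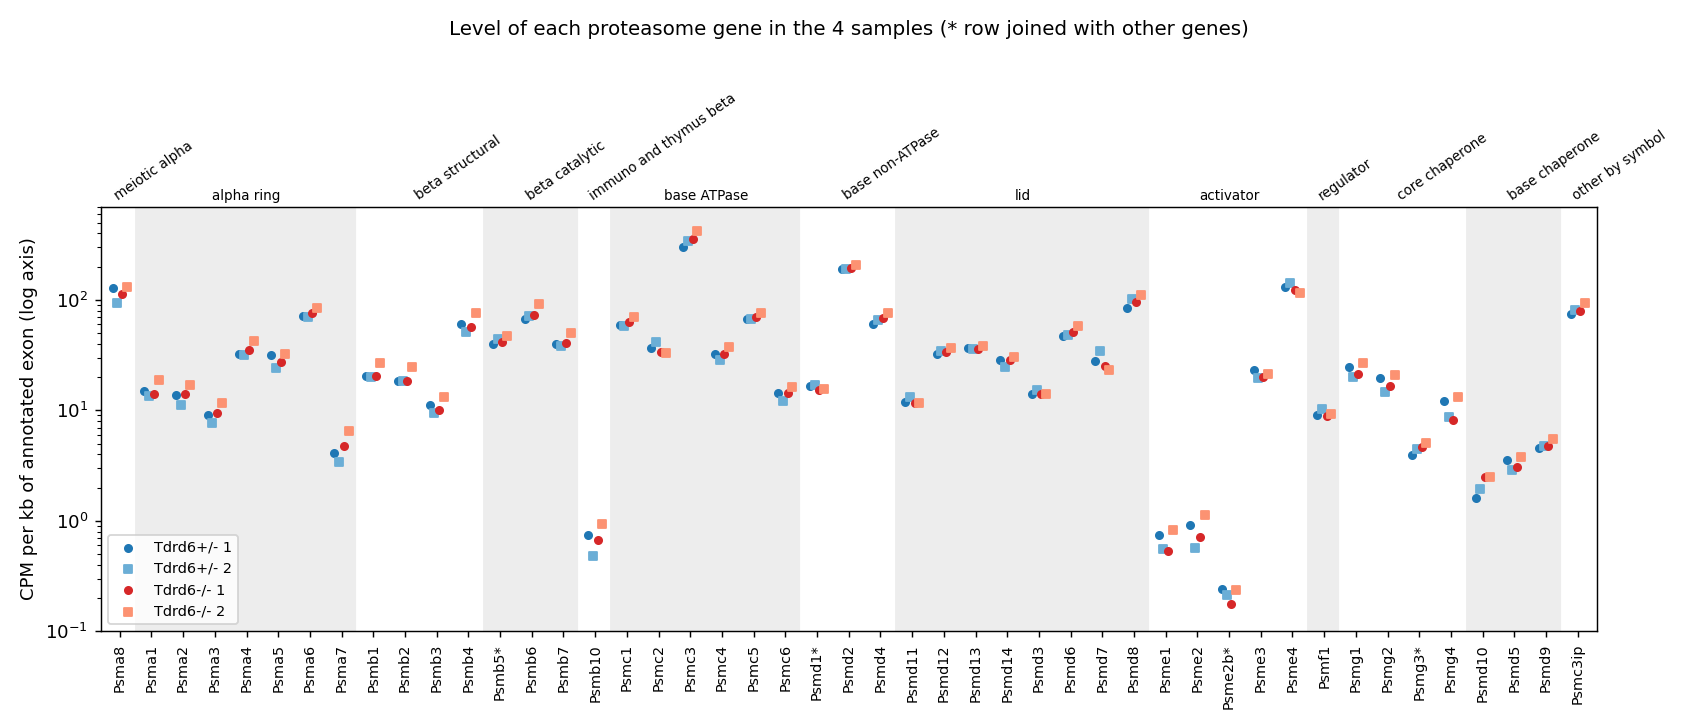
Level of the 47 proteasome genes past the filter (x axis, by role) in CPM per kb of annotated exon (y axis, log axis), with 1 point for each of the 4 samples. Psma8 stands at 94.4 to 129.8 and Psma7 at 3.39 to 6.51, and Psmb10, Psme1 and Psme2 are near 1 or below.

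The meiotic alpha gene was far above its somatic counterpart in both genotypes. Psma8 (ENSMUSG00000036743, chromosome 18 of mm10, 14706151 to 14762301, plus strand) had 8452 and 6561 counts in the Tdrd6+/- and 8898 and 10361 in the Tdrd6-/- samples. Psma7 (ENSMUSG00000027566, chromosome 2, 180036374 to 180042433, minus strand) had 328 and 290 counts in the Tdrd6+/- and 464 and 640 in the Tdrd6-/- samples. For Psma8 the genotypes overlapped, and for Psma7 both Tdrd6-/- samples were the higher ones.

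Per kb, Psma8 exceeded Psma7 by 25.8 ± 5.12 times (SD, n = 4 samples). The Tdrd6+/- samples had ratios of 31.7 and 27.9 and the Tdrd6-/- samples of 23.6 and 19.9, so that the genotypes did not overlap. The means were 29.8 ± 2.74 and 21.8 ± 2.60 (SD, n = 2 each), with p = 0.33 in an exact two-sided permutation test, the smallest p that 2 samples against 2 can give. Since the length given to Psma7 includes exons of minor transcripts, the ratio depended on the length used. It was 16.5 ± 3.28 with the longest transcript of each gene and 20.2 ± 3.48 with the mean count per annotated junction (SD, n = 4 each), and in both the Tdrd6-/- samples were the lower ones.

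Of the pair, Psma7 was the gene whose samples separated by genotype. Psma7 was at 12.5 and 10.4 CPM in Tdrd6+/- and at 14.7 and 20.0 CPM in Tdrd6-/- samples, a log2 fold change of 0.60 (SE 0.20, adjusted p = 0.136, edgeR). For Psma7 this was 0.80 without Tdrd6-/- replicate 1 (adjusted p = 0.0620) and 0.36 without Tdrd6-/- replicate 2 (adjusted p = 0.932). Psma8 was at 322.8 and 235.5 CPM in Tdrd6+/- and at 281.4 and 323.7 CPM in Tdrd6-/- samples, a log2 fold change of 0.12 (SE 0.15, adjusted p = 0.814, edgeR) that turned to -0.091 without Tdrd6+/- replicate 2 and was 0.37 without Tdrd6+/- replicate 1. Set against the median of the other 6 alpha ring genes per kb, Psma7 was at 0.176 and 0.181 in Tdrd6+/- and at 0.232 and 0.254 in Tdrd6-/- samples (exact permutation test, p = 0.33, the smallest possible). Psma8 measured the same way was at 5.58, 5.03, 5.47 and 5.06 times that median, without a separation of the genotypes. Psma7 made up 3.06% and 3.46% of the sum of both genes per kb in Tdrd6+/- and 4.06% and 4.78% in Tdrd6-/- samples.

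**Figure D3:**
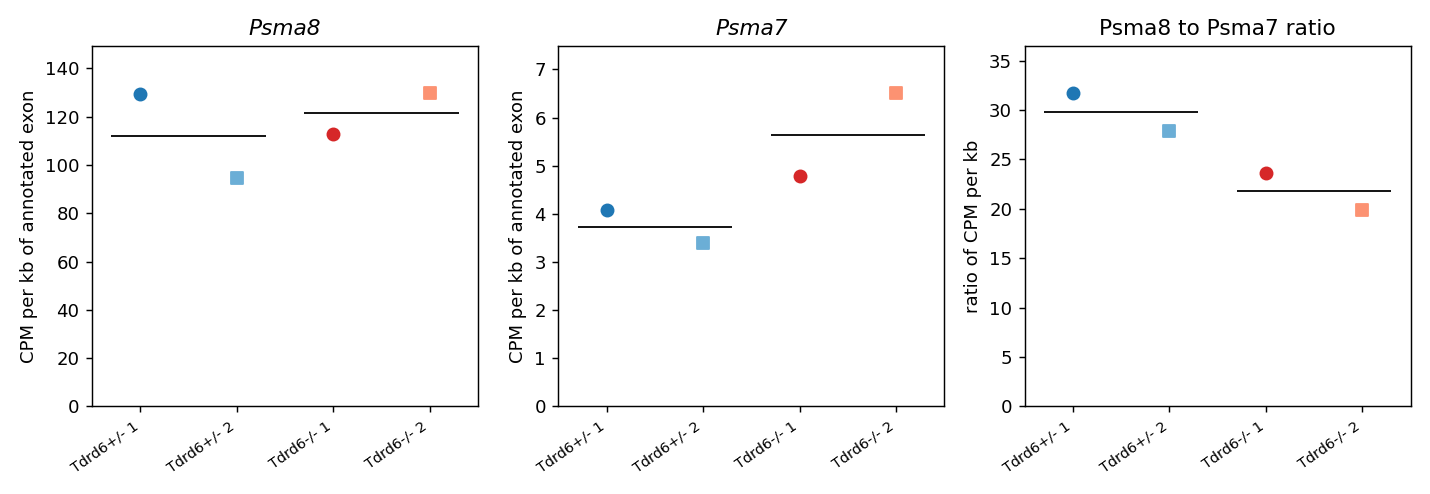
Psma8 (left) and Psma7 (middle) in CPM per kb of annotated exon and their ratio (right) in each of the 4 samples (x axis). Points are samples, lines are the means of 2 samples, all y axes start at 0, and the ratio is 31.7 and 27.9 in Tdrd6+/- against 23.6 and 19.9 in Tdrd6-/- samples.

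The other alpha ring genes gave the same sign. All 7 somatic alpha genes had a positive log2 fold change, from 0.11 for Psma5 (alpha5) to 0.60 for Psma7, with a median of 0.27, and none of them was called. Psma3 (alpha7) had 925 and 838 counts in Tdrd6+/- and 1157 and 1452 in Tdrd6-/- samples, with a log2 fold change of 0.33 (SE 0.16, adjusted p = 0.377, edgeR). Psma2, Psma4 and Psma6 were, like Psma3 and Psma7, higher in both Tdrd6-/- samples, while Psma1 and Psma5 overlapped. Of all genes tested, 20.1% were higher in both Tdrd6-/- samples. The mean log2 CPM of the 7 alpha genes was 5.44 and 5.24 in Tdrd6+/- and 5.46 and 5.77 in Tdrd6-/- samples. Tdrd6-/- replicate 1 was thus close to Tdrd6+/- replicate 1, and Tdrd6-/- replicate 2 was the highest.

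Among the beta genes, the 3 that carry the constitutive proteolytic sites were all abundant. Psmb6 (beta1, caspase-like activity) was at 67.4 and 71.0 CPM per kb in Tdrd6+/- and at 72.4 and 92.2 in Tdrd6-/- samples, Tdrd6-/- replicate 2 being the highest. Psmb7 (beta2, trypsin-like activity) was at 39.7 and 38.3 in Tdrd6+/- and at 41.0 and 50.1 CPM per kb in Tdrd6-/- samples. Psmb5 (beta5, chymotrypsin-like activity), counted together with the microRNA gene Mir686, was at 40.3 and 44.0 in Tdrd6+/- and at 41.6 and 47.2 CPM per kb in Tdrd6-/- samples and overlapped. Their log2 fold changes were 0.25 for Psmb6, 0.22 for Psmb7 and 0.08 for Psmb5, with adjusted p = 0.455, 0.505 and 0.896 (edgeR). Of the beta genes without a proteolytic site, Psmb4 (beta7) and Psmb2 (beta4) had the largest log2 fold changes, 0.26 and 0.23 (adjusted p = 0.467 and 0.647, edgeR), and all 4 overlapped between the genotypes.

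Immunoproteasome genes, which immune cells and interferon-treated cells use in place of the constitutive beta genes, were close to the limit of detection. Psmb8 (beta5i) had 3 and 2 counts in Tdrd6+/- and 1 and 0 in Tdrd6-/- samples. Psmb9 (beta1i) had 0 and 1 counts in Tdrd6+/- and 2 and 3 in Tdrd6-/- samples. The thymus gene Psmb11 (beta5t) had 2 and 9 counts in Tdrd6+/- and 4 and 1 in Tdrd6-/- samples. These 3 genes did not pass the filter, and no fold between the genotypes is given for them.

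Psmb10 (beta2i) was the best covered of them, with 33 and 23 counts in Tdrd6+/- and 36 and 51 in Tdrd6-/- samples (log2 fold change 0.39, SE 0.38, adjusted p = 0.731, edgeR). Its constitutive counterpart Psmb7 exceeded it 61.97 ± 11.97 times per kb (SD, n = 4 samples), from 53.6 to 79.1 times. The 5 immune cell markers, Ptprc and Csf1r among them, summed to 3.02 and 3.66 CPM in Tdrd6+/- and to 5.19 and 2.44 CPM in Tdrd6-/- samples, and 0 of the 4 tested were called. Their part in the Psmb10 counts was not tested.

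In the base, which unfolds substrates and opens the gate of the core, Psmc3 and Psmc2 lay on opposite sides. Psmc3 had 20601 and 24854 counts in Tdrd6+/- and 29293 and 34933 in Tdrd6-/- samples, with a log2 fold change of 0.27 (SE 0.13, adjusted p = 0.392, edgeR). Psmc2 (Rpt1) had 4793 and 5810 counts in Tdrd6+/- and 5338 and 5384 in Tdrd6-/- samples, and on the CPM scale both Tdrd6-/- samples were lower (183.0 and 208.6 against 168.8 and 168.2 CPM). Its log2 fold change was -0.22 (SE 0.13, adjusted p = 0.504, edgeR), the only negative value among the 6 ATPases. As a result of both, the ratio of Psmc3 to Psmc2 per kb was 8.29 and 8.25 in Tdrd6+/- and 10.6 and 12.5 in Tdrd6-/- samples (exact permutation test, p = 0.33, the smallest possible). This pair was chosen after its values were seen.

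The other ATPases, Psmc1, Psmc4, Psmc5 and Psmc6, had log2 fold changes of 0.13 to 0.21. Of the base genes that are not ATPases, the ubiquitin receptor Psmd4 (Rpn10) was at 60.6 and 65.4 CPM per kb in Tdrd6+/- and at 68.3 and 76.3 in Tdrd6-/- samples (log2 fold change 0.20, adjusted p = 0.556, edgeR). Psmd2 had 0.08. Psmd1 (Rpn2) can be given only for its joined row with Armc9 and Gm21972, which had a log2 fold change of -0.11 (adjusted p = 0.783, edgeR).

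The lid holds the deubiquitinase that frees substrates of ubiquitin. Psmd7 (Rpn8), the partner of the deubiquitinase, had 1666 and 2174 counts in Tdrd6+/- and 1796 and 1683 in Tdrd6-/- samples. In CPM these were 63.6 and 78.0 against 56.8 and 52.6, so both Tdrd6-/- samples were lower, with a log2 fold change of -0.37 (SE 0.15, adjusted p = 0.213, edgeR). Without Tdrd6+/- replicate 1 the log2 fold change of Psmd7 was -0.50 and passed (adjusted p = 0.0798, edgeR), and without Tdrd6+/- replicate 2 it was -0.22 (adjusted p = 0.483). The deubiquitinase itself, Psmd14 (Rpn11), was at 28.7 and 24.7 CPM per kb in Tdrd6+/- and at 28.4 and 30.7 in Tdrd6-/- samples, which overlapped. Psmd6 (Rpn7) was at 46.8 and 48.4 against 50.9 and 57.7 CPM per kb (log2 fold change 0.19, adjusted p = 0.585, edgeR). Over the 8 lid genes, 5 log2 fold changes were positive and 3 negative, with a median of 0.05.

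Averaged over the genes of each part, the log2 CPM of the core was 5.81 ± 0.10 in Tdrd6+/- and 6.04 ± 0.23 in Tdrd6-/- (SD, n = 2 each), a difference of 0.23 that the spread of the Tdrd6-/- samples nearly equals. Without Tdrd6-/- replicate 2 the difference was 0.07, and without Tdrd6-/- replicate 1 it was 0.39. The base had 7.42 in both controls against 7.47 and 7.62 in Tdrd6-/- samples, a difference of 0.13 that became 0.06 without Tdrd6-/- replicate 2. The lid had 6.64 and 6.74 in Tdrd6+/- and 6.65 and 6.73 in Tdrd6-/- samples, and its difference of 0.003 took either sign as single samples were left out. The same mean over all genes tested differed by -0.002.

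The activators dock at the ends of the core in place of the regulatory particle. Psme4 (PA200) had 29069 and 33383 counts in Tdrd6+/- and 32862 and 30716 in Tdrd6-/- samples. Per kb these were 132.4 and 143.0 against 124.0 and 114.5 CPM, so both Tdrd6-/- samples were lower, with a log2 fold change of -0.21 (SE 0.13, adjusted p = 0.522, edgeR). The nuclear activator Psme3 (PA28gamma) was at 19.8 to 23.1 CPM per kb with overlap, and Psme4 exceeded it 6.13 ± 0.81 times per kb (SD, n = 4 samples). The interferon-inducible pair Psme1 and Psme2, which serves the immunoproteasome, had 34 to 58 and 28 to 64 counts. Psme2 had a log2 fold change of 0.33 (SE 0.37, adjusted p = 0.781, edgeR). The row of Psme2b, joined with 9930111J21Rik1, held 32 to 43 counts, and the regulator Psmf1 (PI31) had a log2 fold change of -0.08 (adjusted p = 0.873, edgeR).

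Assembly chaperones help to build the complex and are not part of it when finished. The base chaperones Psmd5, Psmd9 and Psmd10 were at 2.14 to 4.91 CPM per kb on average. Psmd10 (gankyrin) had 62 and 80 counts in Tdrd6+/- and 115 and 118 in Tdrd6-/- samples, which did not overlap, with a log2 fold change of 0.48 (SE 0.28, adjusted p = 0.474, edgeR). Psmd9 (p27) had a log2 fold change of 0.15 (SE 0.16, adjusted p = 0.750, edgeR). The core chaperones Psmg1, Psmg2 and Psmg4 were at 10.6 to 23.2 CPM per kb with overlap of the genotypes, Psmg2 having a log2 fold change of 0.13 (SE 0.18, adjusted p = 0.824, edgeR). Psmg3 was joined with Tmem184a and Gm26938, and that row had a log2 fold change of 0.23 (adjusted p = 0.568, edgeR).

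Psmc3ip shares the symbol of the ATPases but encodes HOP2, a factor of meiotic recombination. It was at 73.9 and 81.5 CPM per kb in Tdrd6+/- and at 80.3 and 93.0 in Tdrd6-/- samples (log2 fold change 0.16, SE 0.13, adjusted p = 0.682, edgeR).

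Proteins that work with the proteasome but carry other symbols gave no call either. Of 23 partner genes listed, 22 were tested, and 0 were called higher and 0 lower by edgeR, where 4.8% of all genes were called, with 8 positive log2 fold changes and a median of -0.07. At an unadjusted p under 0.05, 3 passed, beside 13.99% of all genes, each with a negative log2 fold change. The proteasome-bound deubiquitinase Uchl5 had 1964 and 1996 counts in Tdrd6+/- and 1740 and 1725 in Tdrd6-/- samples (log2 fold change -0.43, SE 0.14, adjusted p = 0.104, edgeR). A second such deubiquitinase, Usp14, had a log2 fold change of -0.40 (adjusted p = 0.198, edgeR), and Ecpas, a proteasome scaffold, had -0.30 (adjusted p = 0.287, edgeR). These 3 were chosen after their values were seen. Nfe2l1, named here for its role, is the transcription factor that drives proteasome genes when proteasome activity is low, and it had 1617 and 1689 counts in Tdrd6+/- and 1793 and 1823 in Tdrd6-/- samples (log2 fold change -0.11, adjusted p = 0.822, edgeR).

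Because proteasome genes are known to share a binding element of that factor, the antioxidant response element, promoters from RefSeq on GRCm38.p6 (250 bases before to 50 after the start) were searched on both strands for TGACNNNGC. Promoters were found for 42 of the 50 members, in 45 windows, of which 6 held these letters (13.3%), beside 12.4% of all 32851 promoter windows. The letters CCAAT were in 33.3% of member windows and 37.4% of all. To show what was matched, 3 of the matches that lay before the start are given on the strand of the gene, with the match in capitals.
Psmb5, chr14:54618024-54618052, minus strand: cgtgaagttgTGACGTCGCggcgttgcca
Psmc6, chr14:45329587-45329615, plus strand, element on the opposite strand: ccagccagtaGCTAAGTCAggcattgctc
Psmd9, chr5:123228149-123228177, plus strand: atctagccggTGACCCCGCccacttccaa
A match is a description of the letters and not of binding.

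Splicing was compared next, first by the use of exons and junctions. Each exon segment and junction was tested against the rest of its gene's count. The 46 members with such rows had 820 exon segments, 481 annotated and 13 unannotated junctions, of which 884 exon segments and junctions in 39 genes passed the filter (mean count over 53.4). Only 1 of the 884 was called at a false discovery rate of 0.1 in the DESeq2 likelihood ratio test, where 0.221% of all 147710 features were. At an unadjusted p under 0.05, 36 of the 884 passed, beside 4.36% of all features. The unannotated junctions held 6 to 51 counts each per sample, and none passed the filter.

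The called feature was junction 18 of Psmc2 (ENSMUSG00000028932, chromosome 5 of mm10, 21785283 to 21803787, plus strand), which joins exons 2 and 3 of the 13 exons of its coding transcript across an intron of 8223 bases, from 21786885 to 21795107. It lies within the coding sequence. It is shown as the spliced bases on either side of the join, from GENCODE M21 (21786870 to 21786884 in lower case and 21795108 to 21795122 in capitals).
Psmc2 junction 18: acaagcccatccgagCTCTGGATGAAGGGG

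The Psmc2 junction had 253 and 342 counts in Tdrd6+/- and 425 and 436 in Tdrd6-/- samples. This was 5.58% ± 0.43 of the gene's count in Tdrd6+/- and 8.03% ± 0.10 in Tdrd6-/- (SD, n = 2 each), without overlap. The log2 fold change of usage was 0.56 (SE 0.14, adjusted p = 0.0484, DESeq2 likelihood ratio test). The call was lost with the replicate number as a block (adjusted p = 0.119), with edgeR's usage test (log2 fold change 0.50, adjusted p = 1), and without Tdrd6+/- replicate 1 (0.670) or Tdrd6-/- replicate 1 (0.722) or 2 (1), while the log2 fold change was between 0.48 and 0.57 in all of these settings.

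The 3 features of members with the smallest adjusted p all belonged to the same spot of Psmc2. Exon segments 2 and 4, which flank the junction, had log2 fold changes of 0.46 and 0.42 (adjusted p = 0.184 and 0.3302, DESeq2), and neither was called. A fragment across the junction can also count on these segments, so the 3 features are not independent. Along the 12 annotated junctions of Psmc2, the share in Tdrd6-/- over that in Tdrd6+/- was 1.44 at the second, 1.22 at the third and 1.13 at the fourth, and 0.89 at the last. The first junction, with 9 to 23 counts, was at 1.63. The difference thus declined from the 5′ to the 3′ end of the gene, and intron 2 of Psmc2, from 21786885 to 21794102 within the same interval, had fewer counts in the Tdrd6-/- samples (99 and 115 against 77 and 39). Its mean of 80.7 was below the filter for introns, so it has no adjusted p (log2 fold change -0.90, SE 0.31).

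**Figure D4:**
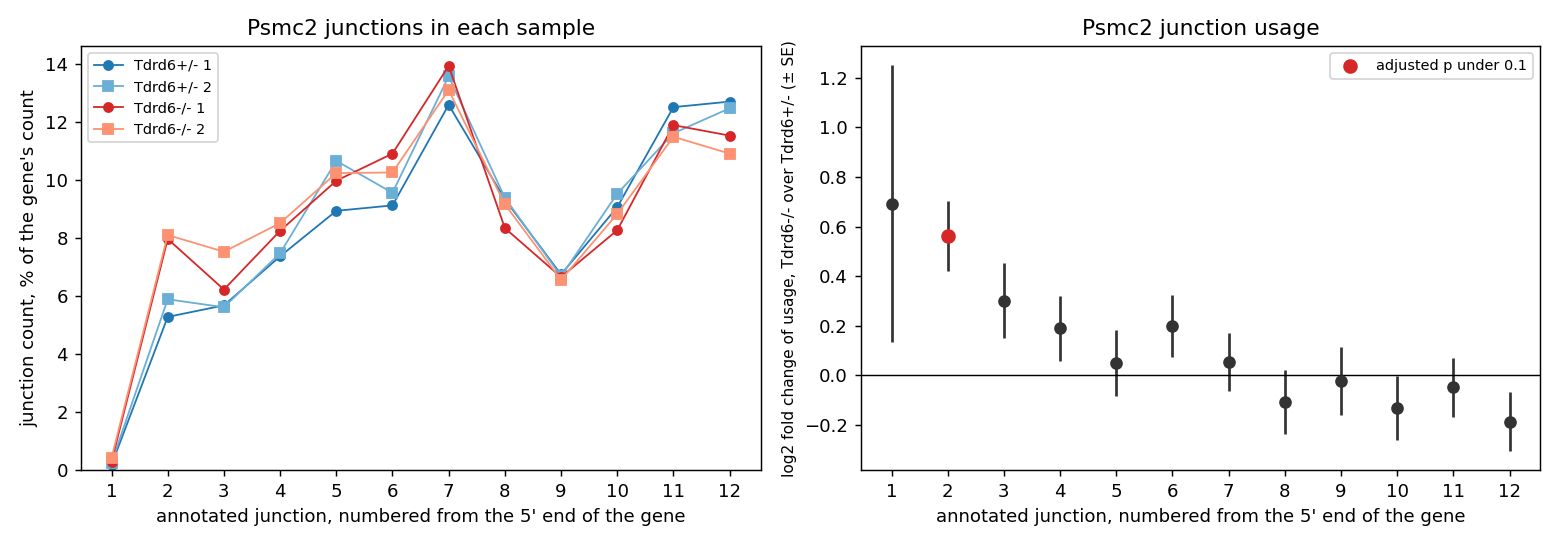
Left, each of the 12 annotated junctions of Psmc2, numbered from the 5′ end (x axis), as % of the gene's count (y axis) in the 4 samples. Right, log2 fold change of usage with bars of 1 standard error, where only the second junction passed (red, 0.56), and values are positive at the 5′ end and negative at the last junction (-0.19).

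A like tilt was measured over other genes. For each gene with at least 6 annotated junctions and 200 junction counts per sample, the share of counts on the junctions before the middle of the gene, on the 5′ side, was taken. For Psmc2, where that side includes the called junction, this was 36.8% and 38.4% in Tdrd6+/- and 41.9% and 42.9% in Tdrd6-/- samples. Over the 34 members with enough junctions, the share was higher in both Tdrd6-/- samples for 15, where 27.5% of 4806 genes were, and lower in both for 4, where 13.4% were. The median share over all these genes was 44.8% and 44.7% in Tdrd6+/- and 45.5% in both Tdrd6-/- samples. The part of this library-wide shift in the Psmc2 result was not tested.

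Introns were tested against the other introns of their gene, so a fall in the share of an intron raises the shares of the others. Of 405 introns in 48 members, 111 in 29 genes passed the filter (mean count over 85.5), and 0 of the 111 were called by the DESeq2 likelihood ratio test, where 1.94% of all 28903 introns were. At an unadjusted p under 0.05, 11 of the 111 passed, beside 10.5% of all introns, and edgeR's usage test also called 0. The smallest adjusted p was that of intron 5 of Psmb1 (beta6), the first in the direction of transcription (chromosome 17, 15498340 to 15499232). It had 271 and 251 counts in Tdrd6+/- and 174 and 170 in Tdrd6-/- samples, or 26.9% ± 0.58 and 19.2% ± 0.96 of the gene's intron counts (SD, n = 2 each), without overlap. Its log2 fold change was -0.63 (SE 0.21, adjusted p = 0.102, DESeq2), and with the replicate number as a block it passed (adjusted p = 0.0966), as did intron 2 of Psmc2.

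Next came intron 3 of Psmb2, which runs on chromosome 4 from 126687286 to 126706057 and held 53.5% ± 2.05 of all Psmb2 intron counts in Tdrd6+/- and 43.4% ± 0.71 in Tdrd6-/- (SD, n = 2 each; adjusted p = 0.152, DESeq2). In Psmb7, intron 6, the second from the 5′ end (chromosome 2, 38642276 to 38643357), was at 5.19% ± 0.02 and 7.77% ± 0.18 (SD, n = 2 each; adjusted p = 0.253, DESeq2). For intron 3 of Psmb2 and intron 6 of Psmb7, the samples separated by genotype. Intron 2 of Psmb2, below the filter, went the other way from intron 3, with a mean share of 8.04% in Tdrd6+/- and 12.4% in Tdrd6-/-.

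All introns of a gene together were then set against its gene count. The sources used here do not say whether a fragment could count on both, so the shares are of counts and not of fragments. Over the 46 members with introns, leaving out rows joined with other genes except that of Psmb5 and its microRNA gene, introns made up 20.1% and 17.1% of intron plus gene counts in Tdrd6+/- and 16.7% and 13.4% in Tdrd6-/- samples (exact permutation test, p = 0.33, the smallest possible). The same share over all genes was 34.5% and 29.5% against 29.8% and 23.4%, so the libraries themselves differed and Tdrd6-/- replicate 2 was lowest in both. The member share divided by that of its library was 0.581 and 0.580 in Tdrd6+/- and 0.560 and 0.574 in Tdrd6-/- samples.

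In a test added after seeing the data, with intron and gene totals scaled separately, edgeR called 0 of 42 members, where 3.17% of 12822 genes were called. At an unadjusted p under 0.05, 3 members passed, beside 13.5% of all genes, and the median log2 fold change was 0.06 in members and 0.06 in all genes. Psma8 had the largest difference. Its introns had 6305 and 5085 counts in Tdrd6+/- and 4834 and 3320 in Tdrd6-/- samples, or 42.7% and 43.7% against 35.2% and 24.3% of intron plus gene counts. The genotypes did not overlap, and the log2 fold change of introns against the gene was -0.56 (SE 0.18, adjusted p = 0.106, edgeR). Intron 4 of Psma8 held 3265 and 2452 of these counts in Tdrd6+/- and 2304 and 1269 in Tdrd6-/- samples, or 51.8%, 48.2%, 47.7% and 38.2%. Without Tdrd6-/- replicate 1, Psma8 passed (log2 fold change -0.73, adjusted p = 0.0120, edgeR), and without Tdrd6-/- replicate 2 it was -0.39 (adjusted p = 0.490).

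Psmb7 and Psmc5, chosen with Psmd14 and Psmc3 after their values were seen, lay on opposite sides. Psmb7 introns made up 35.5% and 31.8% in Tdrd6+/- and 28.0% and 19.6% in Tdrd6-/- samples (log2 fold change -0.41, adjusted p = 0.211, edgeR). For the ATPase Psmc5 (Rpt6) the shares were 10.6% and 10.7% against 11.3% and 11.1%, higher in both Tdrd6-/- samples (log2 fold change 0.39, adjusted p = 0.280, edgeR). The library shares were lower on average in Tdrd6-/- (26.6% against 32.0% in Tdrd6+/-), but their samples overlapped between the genotypes. The most abundant gene, Psmc3, was among those with the lowest share of introns, at 5.54% to 6.08% in the 4 samples, and Psmd14 among those with the highest, at 33.6% to 52.7%.

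**Figure D5:**
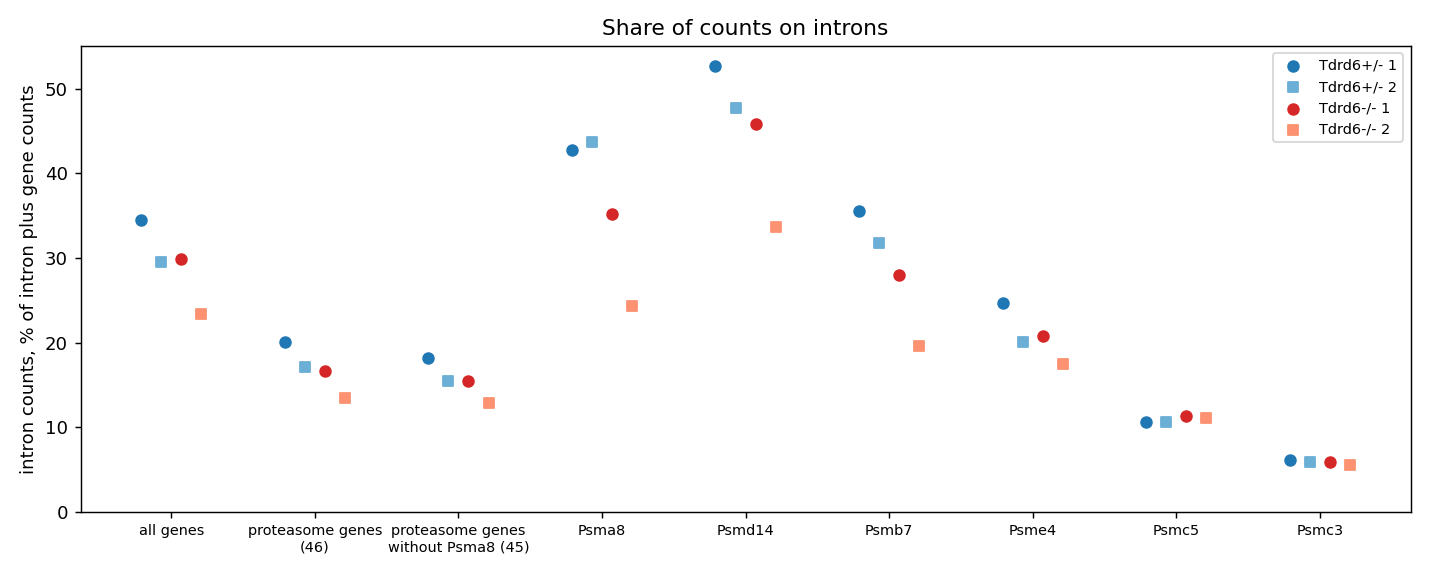
Intron counts as % of intron plus gene counts (y axis, from 0) in each of the 4 samples for all genes, for the 46 proteasome genes together, for the 45 without Psma8, and for 6 single genes (x axis). All genes together range from 23.4% to 34.5% and Psma8 from 24.3% to 43.7%, while Psmc3 stays at 5.54% to 6.08%.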

How the data were processed

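The authors aligned paired-end fragments to mm10 with GSNAP and annotated them with Ensembl release 75. They deposited unnormalized counts per intron, gene, exon segment and junction for each sample, and the counting program and its strand setting are not given in the sources used here. The submitters' processing notes name bcl2fastq 1.8.4. A fragment can count on several segments. Intron, exon and junction positions were read from GENCODE M21 where a gene had as many features as annotated. Gene counts were tested in edgeR 4.0.16 (TMM, filterByExpr, quasi-likelihood) over all genes. Usage was tested in DESeq2 1.42.0 (R 4.3.3) with the model terms of DEXSeq and JunctionSeq, which were not installed, on features with at least 10 counts. Adjusted p-values are Benjamini-Hochberg at a false discovery rate of 0.1. Single values were compared by exact permutation over samples (SciPy 1.17.1) and not adjusted, since 2 samples against 2 cannot go below 0.33. Scripts were tested on simulated data. Depth was 26454326 to 31388750 gene counts per sample. Replicates were separate libraries, as their counts differed by more than sampling noise (chi-square per degree of freedom 18.4 and 16.3).

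The members, role groups and partner list were chosen with earlier results of these data known. Log2 fold changes and adjusted p-values were given, where tested, for every called feature, for Psma8, Psma7, the proteolytic and immune beta genes and Psmc3ip, for the 2 members with the largest absolute log2 fold change in each role group, for the 3 introns and the 3 exon segments or junctions with the smallest adjusted p, and for called partners. Some genes named outside this rule are marked where given, while others, such as Psmd14 in the lid, Psmd2 and Psme3, are not. The alternatives were other size factors, filters, tests, lengths and false discovery rates, the replicate block, and leaving out each sample in turn.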

Additional observations from a re-analysis of the deposited data

How the results depend on the processing

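With 2 samples per genotype, counts of calls depended on the setting, and the cause was not tested. Genes called by edgeR over all genes (794) fell to 75 without the low-count filter and ranged from 257 to 1064 as single samples were left out, with 0 or 1 member called (Psma7 with a crossed pairing of the replicates or without Tdrd6-/- replicate 1, Psmd7 without Tdrd6+/- replicate 1). Introns called (561) were 2 with edgeR's usage test, 327 at a false discovery rate of 0.05 and 5 to 1176 without single samples, with 0 to 2 member introns. Exon segments and junctions called (327) were 81 with edgeR's usage test and 53 to 858 without single samples, with 0 to 4 in members, 0 with edgeR's usage test. Fits that left out a sample used features with at least 100 counts. Genes called for the intron to gene ratio (407) ranged from 58 to 1196, with 0 to 6 members, the 6 being without Tdrd6-/- replicate 1. The log2 fold change of Psma8 ran from -0.091 (without Tdrd6+/- replicate 2) to 0.373. The Psma8 to Psma7 ratio of 25.8 became 16.5 with the longest transcript and 20.2 with junctions, and 23.8 to 27.7 without single samples.

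The labels number the replicates but state no pairing, and deviations of same-numbered samples had a correlation of -0.117 over 12347 genes. With the replicate block, 1046 genes, 881 introns and 306 exon segments and junctions were called, with 0 member genes, 2 member introns and 0 member junctions. Crossing the numbers, chosen after seeing the data, gave 1175 genes and 279 exon segments and junctions.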
